A study of Mus musculus with 24 samples.

Results

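Mouse prostate tumour cells kept for 6 days in PF-06873600, an inhibitor of the cell cycle kinases CDK2, CDK4 and CDK6, were compared with cells kept in its solvent, DMSO. The comparison takes 6 of the 24 libraries of the series, the 3 labelled PF-06873600 and the 3 labelled DMSO, chosen by these labels. It covers the 15527 of 55487 genes in the count table that passed a filter on low counts. All groups were Myc-CaP, a line from a prostate tumour of a mouse whose transgene drives human MYC in prostate epithelium through the probasin promoter. Treated and control cells thus shared this MYC transgene, whose level was not measured here. The cells grew in DMEM with fetal bovine serum, and medium and drug were renewed every 3 days. PF-06873600 was given at 500 nM. Where PF-06873600 differs from other drugs is shown against palbociclib at 1 µM, which inhibits CDK4 and CDK6, and against alisertib at 500 nM, which inhibits Aurora A, also given for 6 days with 3 libraries each. The study asks how drugs make prostate cancer cells senescent and how such cells can be removed. All libraries come from 1 cell line and carry 1 batch label. Nothing in the labels tells if the 3 libraries of a group were separate cultures. A p-value here thus rests only on how far libraries spread within groups, over all 24 libraries, which may be technical.

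CDK4 and CDK6, bound to D-type cyclins, and CDK2, bound to E-type and A-type cyclins, phosphorylate RB and its relatives p107 and p130. Phosphorylated RB releases E2F factors, which drive genes for origin licensing and DNA synthesis, while unphosphorylated p107 or p130 form the DREAM complex, which holds down genes of G2 and mitosis through promoter elements called CHR. Cells that stay arrested for days can become senescent, a state known for CDK inhibitor proteins, loss of lamin B1, lysosomal beta-galactosidase, secreted cytokines and proteases, and interferon-stimulated genes.

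The 6 libraries were sequenced to similar depth, with total counts between 25495616 and 26375555 for PF-06873600 and between 24648676 and 26438205 for DMSO. Levels below are counts scaled to library size (CPM) in libraries 1, 2 and 3 in that order. Changes are given on the log2 scale as edgeR's quasi-likelihood fit estimates them, with n = 3 libraries a group. Their standard error is the change divided by the square root of the F statistic of the test. The spread behind it comes from all 24 libraries of the 8 groups. A gene was called, and is said to have risen or fallen, at an adjusted p under 0.05. The first principal component of the 6 libraries held 56.0% of the variance and separated the groups, and the second held 17.8% and set both libraries numbered 2 apart from the rest. Neat1, a nuclear noncoding RNA, had 154, 42.7 and 172 CPM in DMSO and 206, 59.6 and 205 CPM in PF-06873600, low in library 2 of both groups, and was not called at 0.35 ± 0.64 (adjusted p = 0.73), but was with the library number as a block in a fit of these groups alone (adjusted p = 8.5e-05). The prostate label was checked against its markers. Foxa1, a forkhead factor of luminal cells, had 350.1, 373 and 423 CPM in DMSO. Hoxb13, a prostate homeobox factor, had 34.7, 34.8 and 34.2 CPM, and Krt8, a keratin of luminal cells, had 36, 34 and 37.1 CPM. By contrast Krt18 had 38 counts over the 3 DMSO libraries, and Pbsn and Epcam had 0. Leukocyte markers summed to 2.40, 1.24 and 2.75 CPM in DMSO and 2.39, 2.45 and 3.18 CPM in PF-06873600, with Cd3e, Itgam, Adgre1 and Csf1r at 0 counts in DMSO. Endothelial markers summed to 0.393, 0.580 and 0.199 CPM and 2.35, 2.21 and 2.72 CPM, with Cdh5, Kdr and Emcn at 0 in DMSO. Fibroblast markers summed to 13.5, 18.8 and 22 CPM and 24.8, 25.7 and 27.9 CPM, with Col1a2, Col3a1, Thy1 and Lum at 0 in DMSO. These sums run over the tested markers, 2 of leukocytes, 4 of endothelium and 5 of fibroblasts. The markers named at 0 failed the low-count filter and are not in the sums. Of the 5 fibroblast markers tested, 3 had 0 counts in DMSO, so the others, not named here, carried the DMSO sums. Of these 5, 2 rose and 0 fell. Endothelial and fibroblast sums were thus higher in every treated library, at low levels, and their part in the results below was not tested.

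Treatment changed 4963 genes, 32% of the genes tested. Of these, 2780 rose (17.9%) and 2183 fell (14.1%). Rises of at least 2-fold were more numerous, 966 genes (6.22%), than falls of at least 2-fold, 272 genes (1.75%). Many of these rises were of genes hardly seen in controls. Of the 966, 316 had at most 4 counts over the 3 DMSO libraries and 127 had none. Among the 9037 genes that reached a mean of 10 CPM in the higher group, 1720 rose and 1830 fell, with 136 rising and 130 falling at least 2-fold. Of all calls, 56.0% were higher, which became 72.0% when libraries were scaled by total counts alone, and 73.3% and 74.9% with limma on the deposited TPM. The median change of all genes tested was 0.03 on the log2 scale, or 0.12 with total counts. Since these are bulk samples, fewer cells of one kind and less RNA per cell cannot be told apart in any of the changes that follow.

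**Figure D1:**
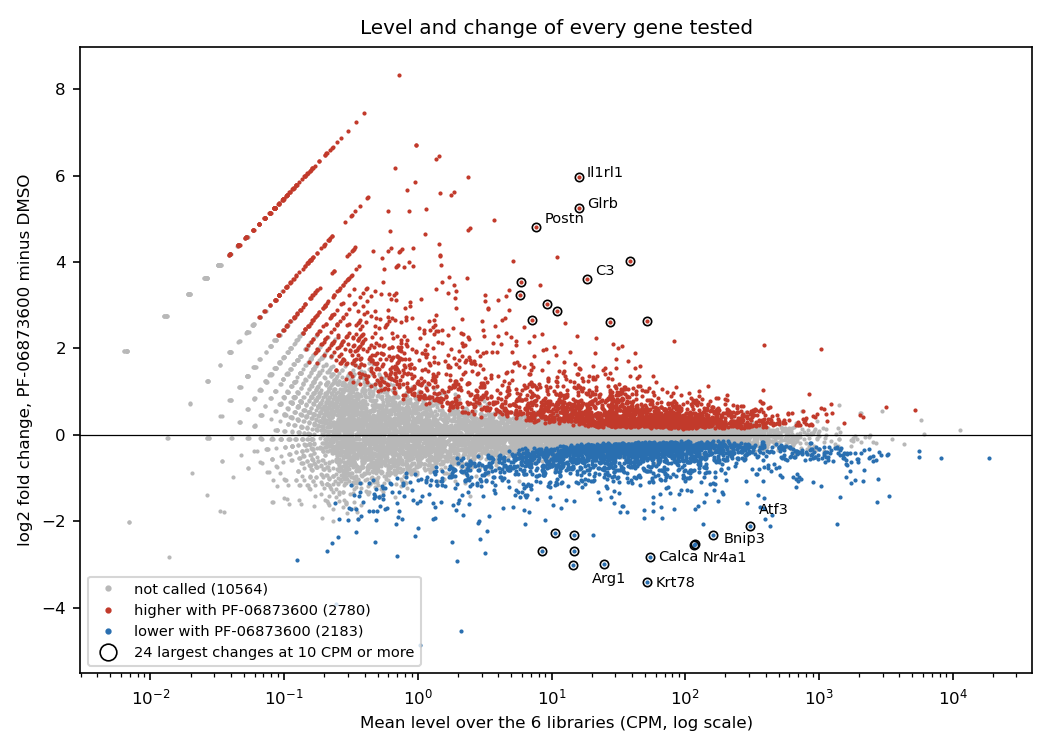
Log2 fold change of PF-06873600 against DMSO for every gene tested, against its mean CPM over the 6 libraries on a log axis. Grey points were not called, red and blue points were called higher and lower, and circles mark the 12 largest rises and 12 largest falls that reached 10 CPM in the higher group. Rises reach farthest at the left, among genes with little or no signal in DMSO.

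The largest rises among genes with at least 10 CPM were of secreted, matrix and receptor genes. Il1rl1, the receptor for interleukin 33 (ENSMUSG00000026069.15, chr1:40429570-40465415, mm10), had 0.524, 0.705 and 0.279 CPM in DMSO and 29.9, 36.8 and 27.7 CPM in PF-06873600, a change of 5.96 ± 0.18 (adjusted p = 6.56e-17). Glrb, a glycine receptor subunit, had 0.742, 1.04 and 0.678 CPM and 32.2, 30.5 and 31.3 CPM, a change of 5.25 ± 0.18 (adjusted p = 3.65e-16). The lowest treated library was 39.3-fold above the highest control for Il1rl1 and 29.5-fold for Glrb. Below these, in falling order of change, stood Postn, a matrix protein (4.81), the complement component C3 (3.60), the matrix protein Fbln1 (3.55), the apolipoprotein L gene Apol9b (3.23), the protease inhibitor Spink5 (3.04), the RAS relative Mras (2.86), Fam171b (2.66), the small heat shock protein Cryab (2.63) and Sbsn, suprabasin (2.61). Apol9b has a near-identical copy, so its reads may be shared. Falls of this size were led by Krt78, a keratin (ENSMUSG00000050463.9, chr15:101946001-101954287, mm10), with 97.6, 79.2 and 107 CPM in DMSO and 8.99, 9.33 and 8.25 CPM in PF-06873600, a change of -3.41 ± 0.19 (adjusted p = 3.85e-12). The next were Pygl, the glycogen phosphorylase of liver (-3.01), Arg1, arginase (-3.0), Calca, which encodes calcitonin and CGRP (-2.83), the glycosyltransferase Galnt15 (-2.70), Plac8 (-2.68) and the early response nuclear receptor Nr4a1 (-2.55). After these came the chemokine Cxcl17 (-2.52), the tight junction gene Cldn4 (-2.32), the mitophagy gene Bnip3 (-2.31) and the transcription factors Egr2 (-2.27) and Atf3 (-2.12). All those named here were called without each of the 6 libraries in turn, and their groups do not overlap, as the rule that named them required.

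Gene lists were then read by how many of their tested members rose or fell, beside the 17.9% and 14.1% over all genes. Listed genes that failed the low-count filter were not tested and are left out of these counts. The plot of the lists shows where these members lie.

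**Figure D2:**
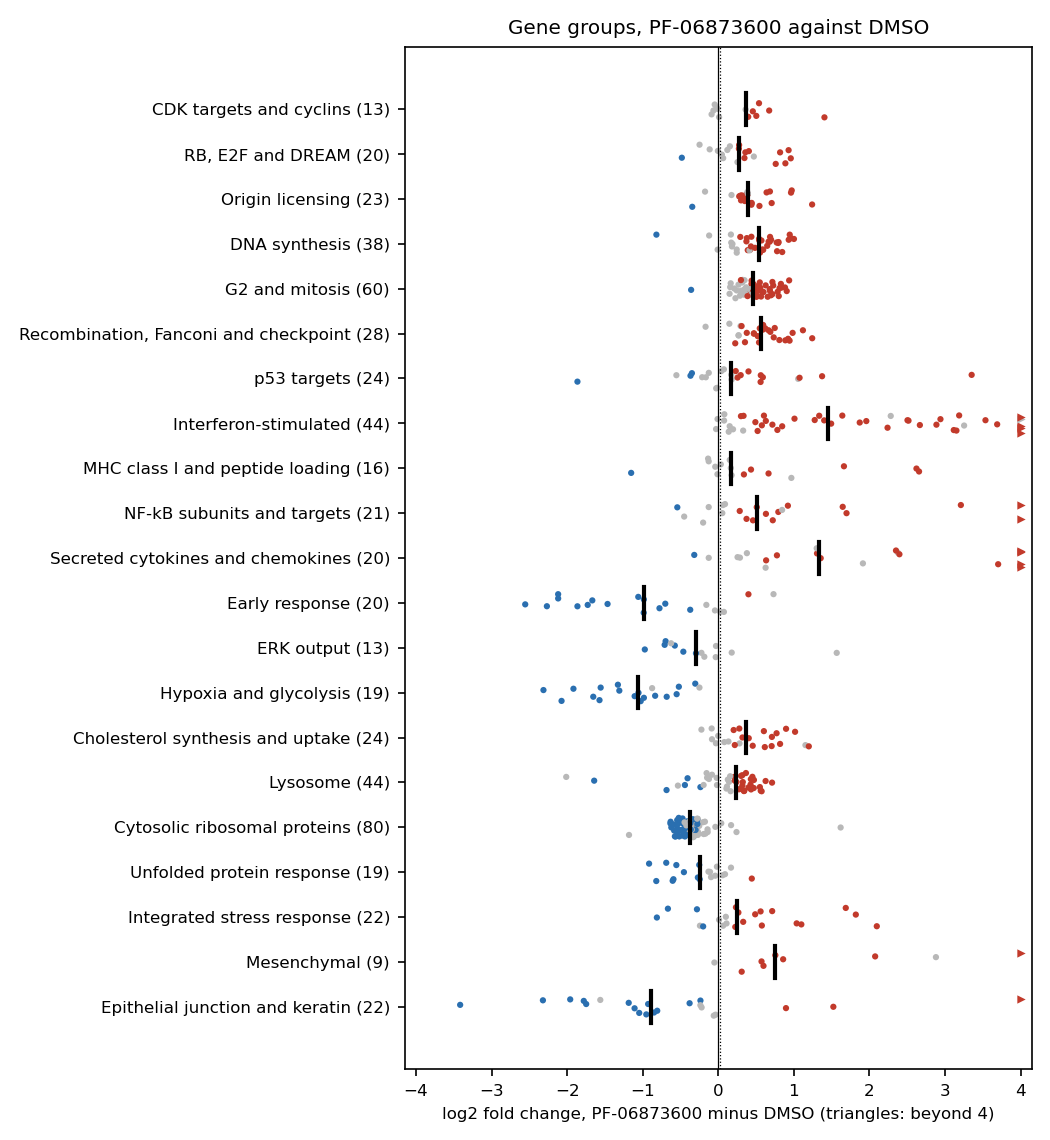
Log2 fold change of PF-06873600 against DMSO for each tested member of the gene lists, 1 point a gene and 1 row a list, coloured where called higher or lower and grey where not. A black tick is the median of a list and the dotted line the median of all genes tested (0.03). Interferon-stimulated genes lie mostly to the right, at a median of 1.45, and hypoxia and glycolysis genes to the left, at -1.06.

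The drug's targets were measured first. Cdk2 had 29.6, 29.4 and 29.8 CPM in DMSO and 28.3, 25.4 and 31.3 CPM in PF-06873600, and Cdk4 406, 405 and 352 and 355, 375 and 363 CPM. Both overlapped between groups and were not called, at -0.06 ± 0.09 (adjusted p = 0.661) and -0.09 ± 0.09 (adjusted p = 0.495). Cdk6 had 74.1, 69.2 and 79.4 CPM in DMSO and 104, 98 and 103 CPM in PF-06873600, higher in every treated library, a change of 0.46 ± 0.09 (adjusted p = 6.20e-04). Of 13 kinases and cyclins of the cell cycle 6 rose and 0 fell, with a median of 0.36. Ccne1, cyclin E1 and a partner of CDK2, changed most, from 8.20, 8.99 and 8.49 CPM to 22.1, 23.1 and 22.9 CPM. Its lowest treated library was 2.46-fold above its highest control, a change of 1.40 ± 0.09 (adjusted p = 7.56e-11). Cyclin E2 rose less, at 0.50 ± 0.15 (adjusted p = 0.0137) for Ccne2, and missed the threshold without PF-06873600 2 (adjusted p = 0.11) and without DMSO 1 (0.087) or DMSO 3 (0.08). The D-type cyclins Ccnd1 and Ccnd3 rose by 0.67 and 0.40. Cdk1, the kinase of mitotic entry, had 51.9, 51.4 and 44.9 CPM in DMSO and 71.3, 70.8 and 73.1 CPM in PF-06873600, a change of 0.54 ± 0.15 (adjusted p = 0.00646), which missed the threshold without DMSO 3 (adjusted p = 0.056).

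The CDK inhibitor genes moved in both directions, 2 of 7 up and 3 down. Cdkn1a, which encodes p21, had 27.2, 29 and 27.5 CPM in DMSO and 42.3, 44.6 and 36.7 CPM in PF-06873600, a change of 0.56 ± 0.08 (adjusted p = 3.94e-06). Cdkn2b, p15, rose from 4.01, 3.61 and 3.59 CPM to 7.12, 7.52 and 7.27 CPM, by 0.97. Neither gene's groups overlap. Cdkn1b, p27, fell (-0.33, adjusted p between 0.05 and 0.052 with limma on TPM), as did Cdkn2c, p18 (-0.38). Cdkn1c, p57, went from 52 counts over the DMSO libraries to 3 over the treated ones (adjusted p = 5.39e-04). Cdkn2a, the gene of p16 and p19Arf, had 176, 159 and 138 CPM in DMSO and 166, 161 and 153 CPM in PF-06873600, which overlap, and was not called (log2 fold change 0.02 ± 0.12 (adjusted p = 0.932)), with a sign that turned when single libraries were left out. Genes of RB, E2F factors and the DREAM complex rose in 10 of 20 and fell in 1, with a median of 0.27. E2f1, an activator, rose by 0.76, and the late repressors E2f7 and E2f8 by 0.93 and 0.89. Mybl2, which replaces the DREAM repressors on mitotic promoters, had 21.2, 21.4 and 25.7 CPM in DMSO and 42.7, 45.4 and 44.8 CPM in PF-06873600, a change of 0.96 ± 0.11 (adjusted p = 2.69e-07). The single fall was Rbl2, the gene of p130 (-0.48 ± 0.10 (adjusted p = 4.64e-04)).

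Genes of DNA replication, mitosis and recombination repair were higher after 6 days of the CDK inhibitor than in DMSO. The sequences around the start of 3 of them are shown because they hold the E2F and CHR letters by which these programmes are known. They are RefSeq promoters of build GRCm38.p6, from 250 bases before to 50 after the gene start, written 5′ to 3′ on the gene's strand. Cdc6 (chr11:98907901-98908200, plus strand) and Dtl (chr1:191575495-191575794, minus strand) carry 1 E2F match each, and Ndc80 (chr17:71526808-71527107, minus strand) 1 CHR match. Capitals mark the match, which starts at -138 from the gene start in Cdc6, at -8 in Dtl and at 29 in Ndc80. In Cdc6 and Ndc80 it is on the opposite strand.
Cdc6: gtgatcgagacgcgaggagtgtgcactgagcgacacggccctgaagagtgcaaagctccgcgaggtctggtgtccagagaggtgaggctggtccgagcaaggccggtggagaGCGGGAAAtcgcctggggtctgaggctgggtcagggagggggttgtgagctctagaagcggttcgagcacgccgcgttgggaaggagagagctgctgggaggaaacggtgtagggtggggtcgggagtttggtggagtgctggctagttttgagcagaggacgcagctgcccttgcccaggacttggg
Dtl: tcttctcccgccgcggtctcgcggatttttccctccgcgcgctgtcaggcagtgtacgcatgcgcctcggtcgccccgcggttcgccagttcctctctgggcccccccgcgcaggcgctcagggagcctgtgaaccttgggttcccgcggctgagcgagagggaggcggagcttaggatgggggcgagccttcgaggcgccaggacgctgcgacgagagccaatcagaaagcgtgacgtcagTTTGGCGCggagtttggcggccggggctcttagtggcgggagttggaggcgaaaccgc
Ndc80: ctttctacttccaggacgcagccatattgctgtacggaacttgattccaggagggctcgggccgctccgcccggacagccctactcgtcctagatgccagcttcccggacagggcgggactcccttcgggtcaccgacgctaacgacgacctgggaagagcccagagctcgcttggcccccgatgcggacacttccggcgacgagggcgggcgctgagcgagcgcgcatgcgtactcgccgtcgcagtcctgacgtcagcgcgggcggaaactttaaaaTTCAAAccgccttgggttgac
The E2F letters searched were TTTCCCGC or TTTGGCGC, and the CHR letters TTTGAA, on both strands. The E2F letters were in 8 of 18 promoters of licensing genes (44.4%) and 8 of 32 of DNA synthesis genes (25.0%), against 1.8% of 27025 promoters in the table and 3.29% of those of tested genes. The CHR letters were in 37 of 52 promoters of G2 and mitosis genes (71.2%), against 20.2% of all and 14.6% of those tested. Promoters were matched by symbol for 10737 of the tested genes. These are matches of letters, not binding sites.

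Of 23 genes of origin licensing 18 rose and 1 fell, with a median of 0.39. Cdc6, the loader of the MCM helicase, had 9.55, 10.0 and 11.1 CPM in DMSO and 22.9, 24.8 and 25 CPM in PF-06873600, a change of 1.24 ± 0.14 (adjusted p = 2.75e-07). The lowest treated library was 2.06-fold above the highest control. Cdc45 and Mcm10, which start the helicase, rose by 0.97 and 0.96, and the helicase subunit Mcm4 by 0.64. Orc5, of the origin recognition complex, fell (-0.34). The count of licensing genes that rose was 11 without PF-06873600 2, 11 without DMSO 1 and 10 without DMSO 3. It was 20 with the library number as a block in the fit of all libraries. In DNA synthesis 28 of 38 genes rose and 1 fell, at a median of 0.54. Dtl, which marks the licensing factor CDT1 for destruction, had 17.8, 20.1 and 19.1 CPM in DMSO and 34.6, 37.6 and 36.6 CPM in PF-06873600, a change of 0.93 ± 0.12 (adjusted p = 1.51e-06). The histone chaperone Asf1b rose by 1.0, the flap nuclease Fen1 by 0.96, thymidine kinase, Tk1, by 0.85, and the clamp loader subunit Rfc3 by 0.79. Pold3, a subunit of DNA polymerase delta, went the other way, from 42.1, 41.7 and 41.6 CPM to 25, 21.7 and 24.4 CPM, a change of -0.82 ± 0.06 (adjusted p = 4.77e-10). Clustered histone genes were barely counted, at sums of 5.15, 3.19 and 3.31 CPM in DMSO and 3.91, 3.90 and 4.24 CPM in PF-06873600, and 1 of 4 tested rose.

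Of 60 genes of G2 and mitosis 36 rose and 1 fell, with a median of 0.46. Ndc80, which joins kinetochores to microtubules, had 17.9, 22.5 and 16.9 CPM in DMSO and 32.6, 35.2 and 39.6 CPM in PF-06873600, a change of 0.91 ± 0.16 (adjusted p = 8.63e-05). Aurka, the kinase Aurora A, had 23.7, 24.6 and 25.6 CPM in DMSO and 41.7, 44.3 and 45.3 CPM in PF-06873600, a change of 0.83 ± 0.15 (adjusted p = 1.82e-04). In both genes the lowest treated library was above the highest control. The spindle gene Nusap1 (0.94), the kinetochore genes Knl1 (0.88) and Spc25 (0.84), the securin Pttg1 (0.81), the chromosomal passenger Birc5 (0.80) and the kinesin Kif20b (0.79) rose too. Kif4, a chromosome-bound kinesin named after its value was seen because it was the single fall, changed by -0.36 ± 0.06 (adjusted p = 6.67e-05). The proliferation marker Mki67 had 64.5, 78.5 and 66.4 CPM in DMSO and 96.1, 106 and 95.6 CPM in PF-06873600, which do not overlap, a change of 0.51 ± 0.18 (adjusted p = 0.0332). That call missed the threshold without each library except DMSO 2, with adjusted p of 0.074 without PF-06873600 1, 0.13 without PF-06873600 2, 0.055 without PF-06873600 3, 0.14 without DMSO 1 and 0.13 without DMSO 3. With all libraries it was also lost when DESeq2 took the place of edgeR (adjusted p = 0.0726). The count of 36 was 20 without DMSO 1 and 23 without DMSO 3. It was 47 without all libraries numbered 2, and 48 with the library number as a block in the fit of all libraries. None of the 60 genes changed by significantly more than 1.5-fold. Recombination, Fanconi and checkpoint genes rose in 23 of 28 and fell in 0, with a median of 0.57. Among them were the helicase Brip1 (1.24), Brca1 (1.12), the BRCA1 partner Bard1 (0.94) and Fanca (0.92).

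**Figure D3:**
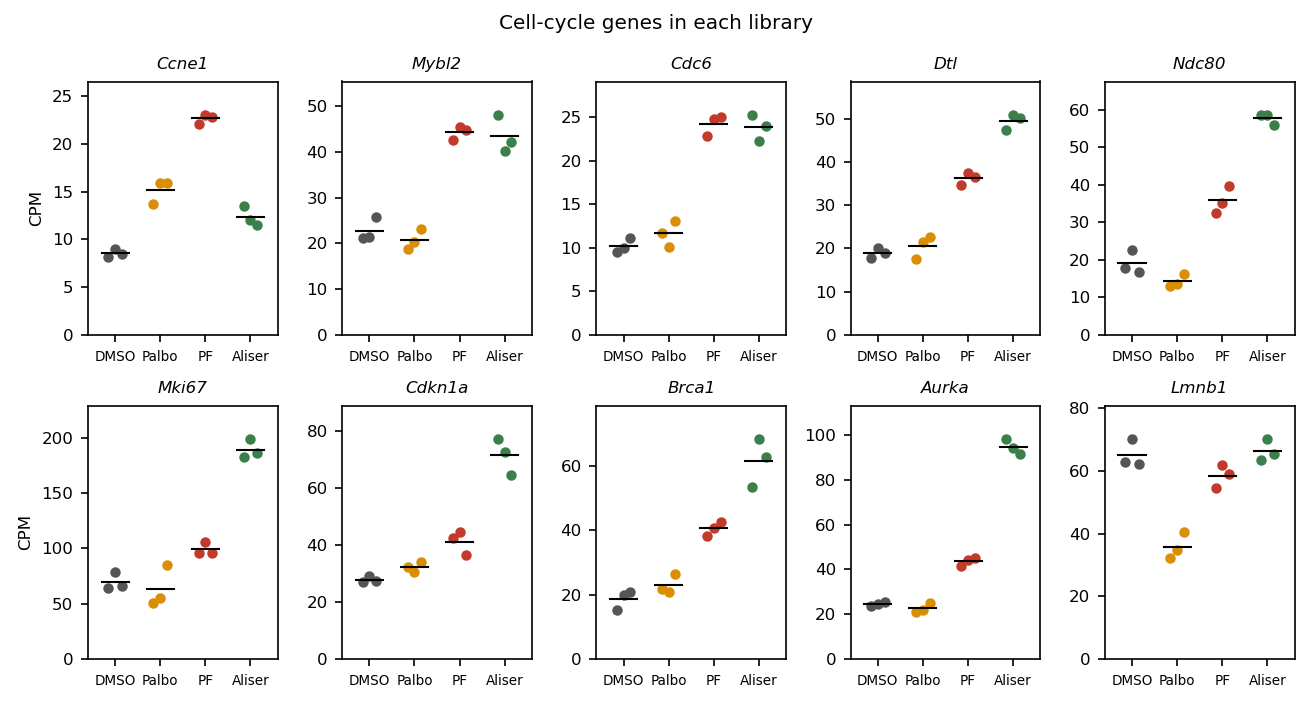
CPM of cell cycle genes in each library of DMSO, PF-06873600 (PF), palbociclib (Palbo) and alisertib (Aliser), 1 point a library, with a bar at the mean of each group. The 3 PF-06873600 libraries of Cdc6 lie between 22.9 and 25.0 CPM, above the DMSO libraries at 9.55 to 11.1.

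Markers of senescence and of p53 activity gave a mixed picture. Lmnb1, lamin B1, had 62.8, 70.4 and 62.2 CPM in DMSO and 54.7, 61.8 and 59.2 CPM in PF-06873600, lower in every treated library, and was not called at -0.15 ± 0.11 (adjusted p = 0.325). It was called with the library number as a block in a fit of these groups alone (adjusted p = 0.044). Glb1, the gene of lysosomal beta-galactosidase, fell from 176, 186 and 169 CPM to 109, 111 and 110.0 CPM, a change of -0.68 ± 0.08 (adjusted p = 5.11e-07). Of 24 p53 targets 10 rose and 3 fell, with a median of 0.17, and the block made it 11 and 5. Eda2r, a receptor of the TNF family, rose by 1.37, Phlda3, an AKT inhibitor, by 1.08, and Trp53inp1 by 0.59. Mdm2, the ubiquitin ligase of p53, had 79.6, 78.6 and 79.9 CPM in DMSO and 83.1, 81.7 and 85.9 CPM in PF-06873600 and was not called (0.07 ± 0.07 (adjusted p = 0.455)), with every treated library slightly above every control. Btg2, an antiproliferative gene that p53 and growth factors can induce, fell from 693, 704 and 715 CPM to 209, 185 and 186 CPM, a change of -1.86 ± 0.12 (adjusted p = 5.11e-11). Trp53 itself rose by 0.40.

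Interferon-stimulated genes rose together. Of 44 tested members 33 rose and 0 fell, and the median was 1.45, or 1.33 with genes at 0 counts in DMSO set to their bound. At a minimum change of 1.5-fold 18 rose. The promoter of Isg15 (chr4:156200769-156201068, minus strand, GRCm38.p6, RefSeq) is shown because it holds 3 matches to the letters GAAANNGAA, the core of the interferon response element ISRE. The matches overlap, so the capitals run together.
Isg15: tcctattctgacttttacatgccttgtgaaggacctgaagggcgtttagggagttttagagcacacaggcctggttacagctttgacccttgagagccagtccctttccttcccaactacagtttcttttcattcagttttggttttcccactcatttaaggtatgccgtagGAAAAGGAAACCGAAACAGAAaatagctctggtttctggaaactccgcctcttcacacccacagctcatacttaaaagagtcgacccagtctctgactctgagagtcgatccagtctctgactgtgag
The letters were in 21 of 32 promoters of these genes (65.6%), on either strand, against 9.76% of all promoters in the table and 8.49% of those of tested genes. Isg15, a ubiquitin-like protein named after its value was seen, had 6.89, 5.51 and 6.38 CPM in DMSO and 15.1, 17 and 15.4 CPM in PF-06873600, a change of 1.33 ± 0.23 (adjusted p = 7.83e-05). The lowest treated library was 2.18-fold above the highest control. The largest rises were of genes near 0 in controls. Gbp3, a guanylate-binding protein, had 0, 0.207 and 0.0399 CPM in DMSO and 2.39, 2.57 and 1.63 CPM in PF-06873600 (log2 fold change 4.65 ± 0.49 (adjusted p = 1.01e-07)). The RNA-sensing synthetases Oas2 and Oas3 had a mean of 1.38 ± 0.536 and 2.80 ± 0.163 CPM (SD, n = 3) after treatment, against 0.0715 ± 0.0914 and 0.149 ± 0.130 CPM in DMSO, and the ISG15 protease Usp18 2.78 ± 0.0893 against 0.238 ± 0.0736 CPM. Among members with more counts, Ifi27, also named after its value was seen, rose from 30.4, 27.6 and 27.9 CPM to 58.4, 57.5 and 56.8 CPM, a change of 1.01 ± 0.13 (adjusted p = 1.37e-06). Ddx58, the RNA sensor RIG-I, rose by 0.78. Genes that sense DNA and RNA gave 4 up and 2 down of 11.

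Antigen presentation rose in part. MHC class I and peptide loading genes gave 6 up and 1 down of 16, with a median of 0.17, and 3 up without the libraries numbered 2. The immunoproteasome subunits Psmb8 and Psmb9 had 0.0873, 0.290 and 0.279 and 0.175, 0.0829 and 0.0399 CPM in DMSO, and 1.76, 1.17 and 1.32 and 0.235, 0.724 and 0.908 CPM in PF-06873600. The heavy chain gene H2-K1 rose from 86.5, 89.7 and 83.1 CPM to 134, 145 and 132 CPM, a change of 0.66 ± 0.09 (adjusted p = 3.15e-06), and the light chain B2m was not called (-0.13 ± 0.10 (adjusted p = 0.335)). H2-T23, a nonclassical class I gene, fell (-1.15). Class I genes are near-identical in parts and can share reads. All 4 tested class II genes rose, from low levels, and 4 more listed were not tested. The chain genes H2-Aa, H2-Ab1 and H2-Eb1 had 0 counts in both groups. Ciita had 4 counts over the DMSO libraries and 10 over the treated ones. Cd74, the invariant chain, had 0.0436, 0.0829 and 0.0797 CPM in DMSO and 3.60, 3.98 and 2.84 CPM in PF-06873600, and the peptide exchange factor gene H2-DMa 2.36, 1.49 and 1.71 and 4.89, 3.86 and 3.44 CPM. Of 14 immune ligands 9 rose and 2 fell, with 5 rises left without DMSO 3. Ulbp1, a ligand of the NKG2D receptor of killer cells, had 3.49, 6.38 and 6.62 CPM in DMSO and 14, 13.1 and 13.1 CPM in PF-06873600, a change of 1.28 ± 0.18 (adjusted p = 5.42e-06). Lgals9, galectin 9, rose by 0.75, and Cd47, a signal against uptake by macrophages, by 0.47, while the costimulator Tnfsf9 fell (-1.16). Cd274, the gene of PD-L1, was at 1.61, 1.45 and 0.877 CPM in DMSO and 2.11, 2.21 and 2.23 CPM in PF-06873600, a change of 0.74 ± 0.25 (adjusted p = 0.0296). This call was lost without any library except DMSO 1, with adjusted p of 0.065, 0.081 and 0.07 without PF-06873600 1, 2 and 3, and 0.052 and 0.2 without DMSO 2 and 3.

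Among tested secreted factors of the senescence phenotype, rises were more frequent than falls. Of 20 tested cytokines and chemokines 11 rose and 1 fell, at a median of 1.33. Of these 20, 6 had at most 4 counts over the DMSO libraries, where a fall could hardly be seen. Another 15 listed were not tested. Il6, Tnf and Csf2, not tested, had 0 counts in DMSO and 2, 2 and 4 over the treated libraries. Cxcl5, which attracts neutrophils, had 9.77, 12.8 and 9.49 CPM in DMSO and 28.3, 29.6 and 24.3 CPM in PF-06873600, a change of 1.35 ± 0.11 (adjusted p = 1.13e-09). Ccl9, a chemokine of the mouse, went from 0.349, 0.166 and 0.159 CPM to 7.08, 8.0 and 6.36 CPM. Of 27 tested proteases, matrix and growth factor genes 15 rose and 3 fell, at a median of 0.99. In this list 5 tested genes had at most 4 counts in DMSO, and 10 more genes were not tested. Spp1, osteopontin, had 402, 458 and 392 CPM in DMSO and 1676, 1681 and 1580.4 CPM in PF-06873600, with the nearest libraries of the groups 3.45-fold apart, a change of 1.98 ± 0.08 (adjusted p = 1.36e-14). The collagenase gene Mmp13 had 0 counts in DMSO and 32 over the treated libraries, at least 3.32 higher on the log2 scale against a floor of 3 counts over the DMSO libraries. Mmp10 had 2 counts in DMSO and 0.938, 0.523 and 0.492 CPM after treatment. The 3 falls, named as such after their values were seen where the rule did not name them, were Igfbp5, which binds insulin-like growth factors (-1.44), Vegfa (-1.31) and Tgfb3 (-0.60). Igfbp5 went from 1931, 2151 and 2183 CPM to 776, 763 and 764 CPM.

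Subunits and targets of NF-kB, a driver of inflammatory genes, rose in 13 of 21 and fell in 1, at a median of 0.51. Relb, a subunit of the alternative pathway, had 2.84, 4.19 and 3.19 CPM in DMSO and 10.6, 10.2 and 11.2 CPM in PF-06873600, a change of 1.65 ± 0.13 (adjusted p = 5.67e-10). Nfkb2, its partner, rose by 0.79, and the feedback inhibitors Tnfaip3 and Nfkbia by 0.92 and 0.51. Tnfaip2 went from 0.611, 0.829 and 1.20 CPM to 8.64, 8.73 and 7.30 CPM, a change of 3.21 ± 0.19 (adjusted p = 9.29e-12). Traf1, a signalling adaptor, had 0 counts in DMSO and 53 over the treated libraries, at least 4.05 higher on the log2 scale. The kinase gene Ikbke fell (-0.54 ± 0.15 (adjusted p = 0.00879)), a call lost with total counts as scaling (adjusted p = 0.057) or with limma, fitted to TPM (0.148 and 0.136). Complement genes rose in 5 of 8 and in 3 without DMSO 3. C3, the central component, had 2.31, 3.77 and 2.31 CPM in DMSO and 35.7, 37.6 and 28.6 CPM in PF-06873600, 7.58-fold apart at the nearest libraries, a change of 3.60 ± 0.17 (adjusted p = 3.44e-13). C1s1, a protease of the classical pathway, had 0.131, 0.0829 and 0.120 and 1.13, 1.25 and 0.946 CPM.

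Early response genes, which growth factors and stress induce within an hour, fell in 14 of 20 and rose in 1, with a median of -0.99. Nr4a1 had 211, 149.8 and 239 CPM in DMSO and 35.4, 26.5 and 40.1 CPM in PF-06873600, a change of -2.55 ± 0.22 (adjusted p = 3.00e-09). Atf3, a stress-induced factor, went from 569, 440.3 and 489.7 CPM to 125, 105 and 115 CPM, a change of -2.12 ± 0.15 (adjusted p = 2.90e-10). Egr1, a zinc finger factor induced by ERK, went from 893, 624 and 578 CPM to 188, 154 and 141 CPM, a change of -2.12 ± 0.18 (adjusted p = 2.21e-09). The nearest libraries of the groups were 3.74-fold apart for Nr4a1, 3.51-fold for Atf3 and 3.07-fold for Egr1. The AP-1 subunits Fosb (-1.73), Jun (-1.46), Junb (-0.98) and Fos (-0.70) fell, as did Ier2 (-1.67). At a minimum change of 1.5-fold 11 fell. The AP-1 letters TGANTCA were in 0 of 17 promoters of the list within this window, against 8.97% of all promoters in the table and 6.6% of those of tested genes, a share at which few matches would be found in 17. Of 13 genes read as output of the kinase ERK 6 fell and 0 rose, at a median of -0.29, among them the ETS factors Etv4 (-0.97) and Etv5 (-0.70) and Ier3 (-0.58). Of 7 EGF family genes 2 rose and 4 fell. The receptors Erbb3 (-0.97) and Erbb2 (-0.53) and the ligand Hbegf (-0.97) fell, while the receptor Egfr rose (0.38, adjusted p = 0.00895), a call lost without PF-06873600 2 (adjusted p = 0.0575) or DMSO 2 (0.0581). The ligand Btc rose from 1.57, 2.16 and 1.40 CPM to 7.98, 10.0 and 6.55 CPM, a change of 2.26 ± 0.20 (adjusted p = 5.10e-09).

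Targets of YAP and TEAD, the effectors of the Hippo pathway, gave 4 up and 2 down of 18, shares near those of all genes, and 7 up and 2 down with total counts as scaling. Ccn1, a matrix-bound signal, fell from 2162, 2264 and 2162 CPM to 554, 524 and 493 CPM, a change of -2.07 ± 0.09 (adjusted p = 8.15e-14). The coagulation factor gene F3 fell too (-0.98), while Ankrd1 (1.56) and the receptor kinase Axl (0.74) rose. Genes of the ID and TGF-beta families rose in 7 of 9. Id1, which blocks differentiation factors, had 25.6, 20.1 and 22.5 CPM in DMSO and 59.4, 79.1 and 68 CPM in PF-06873600, a change of 1.60 ± 0.19 (adjusted p = 5.22e-07), and Id3 and the TGF-beta binding protein Ltbp1 rose by 0.82 and 1.03. Mouse Myc had 113, 113 and 136 CPM in DMSO and 114, 94.7 and 106 CPM in PF-06873600 and was not called, at -0.20 ± 0.10 (adjusted p = 0.121), though it was without PF-06873600 1 (adjusted p = 0.04) and without DMSO 2 (0.047), and with the block in a fit of these groups alone (0.0195). Mga, which competes for the MYC partner MAX, went from 2.49, 2.61 and 2.35 CPM to 12, 12.3 and 12.3 CPM, a change of 2.30 ± 0.16 (adjusted p = 9.05e-11).

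Hypoxia and glycolysis genes fell together. Of 19 tested entries 17 fell and 0 rose, with a median of -1.06, and at a minimum change of 1.5-fold 13 fell. The other 2 were Slc16a3, a lactate exporter, and a second, barely counted model of Aldoa. Bnip3 is shown because its promoter (chr7:138909457-138909756, minus strand, GRCm38.p6, RefSeq) holds the letters ACGTG, the core of the hypoxia response element, on both strands as an overlapping pair in capitals. Together they read CACGTG, which is also an E-box.
Bnip3: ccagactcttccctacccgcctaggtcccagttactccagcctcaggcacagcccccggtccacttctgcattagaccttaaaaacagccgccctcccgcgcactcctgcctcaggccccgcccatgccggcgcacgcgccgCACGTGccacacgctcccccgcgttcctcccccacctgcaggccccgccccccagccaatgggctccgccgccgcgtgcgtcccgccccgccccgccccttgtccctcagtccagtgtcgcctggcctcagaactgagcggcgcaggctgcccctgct
These letters were in 14 of 18 promoters of the list (77.8%), against 21.8% of all promoters in the table and 29.0% of those of tested genes. They were searched after the other motifs had been chosen. Bnip3 had 229, 319 and 256 CPM in DMSO and 55.1, 52.2 and 54.7 CPM in PF-06873600, a change of -2.31 ± 0.17 (adjusted p = 3.41e-10). Pdk1, which keeps pyruvate from the mitochondria, went from 96.6, 109.6 and 112 CPM to 30.0, 26.7 and 27.7 CPM, a change of -1.92 ± 0.11 (adjusted p = 9.40e-12). Between the nearest libraries, treated levels were 4.16-fold lower for Bnip3 and 3.22-fold lower for Pdk1. The glucose transporter Slc2a1 fell by 1.65 on the log2 scale. Along glycolysis, the changes were -1.33 for the hexokinase Hk2, -1.57 for the phosphofructokinase Pfkl, -1.03 for Gapdh, -1.56 for the kinase Pgk1 and -1.06 for the lactate dehydrogenase Ldha. Pgk1 went from 3711, 4347 and 4082 CPM to 1343, 1388 and 1398 CPM. Summed over the list, levels were 23325, 25524 and 23298 CPM in DMSO and 12902, 13276 and 12896 CPM in PF-06873600.

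**Figure D4:**
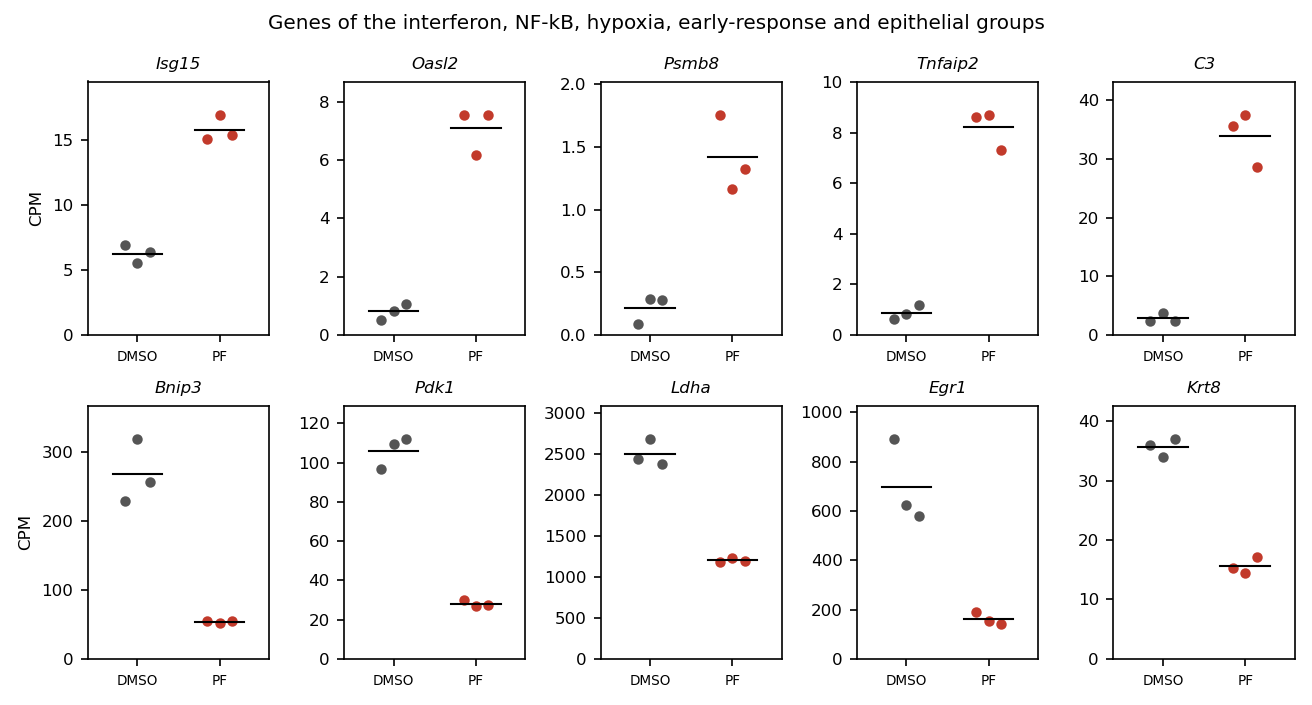
CPM of 10 genes of the interferon, NF-kB, complement, hypoxia, early response and epithelial lists in each library of DMSO and PF-06873600 (PF), 1 point a library, with a bar at the mean of each group. C3 lies between 28.6 and 37.6 CPM in PF-06873600 and below 4 CPM in DMSO, while Bnip3 lies between 52.2 and 55.1 CPM in PF-06873600 and above 228 CPM in DMSO.

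Other metabolic lists moved less. Cholesterol synthesis and uptake genes rose in 15 of 24 and fell in 0, with a median of 0.36. Msmo1, a sterol oxidase, had 38.2, 41.2 and 37.1 CPM in DMSO and 65.8, 71.1 and 68.4 CPM in PF-06873600, a change of 0.82 ± 0.07 (adjusted p = 4.21e-09). Hmgcs1, an early enzyme of the pathway, rose by 0.90, Idi1 by 1.02 and Fdps by 1.20. The letters CCAAT, on either strand, were in all 16 promoters found for the list, against 41.1% of all promoters in the table, and the sterol element TCACNCCAC in 1 of the 16. Of 44 lysosomal genes 24 rose and 5 fell, at a median of 0.23, with Lamp1, a membrane protein of lysosomes, up by 0.63, the galactosidase Gla up by 0.71 and the protease Ctsh down (-1.64). In arginine and polyamine metabolism 2 genes of 11 rose and 4 fell. Arg1, which splits arginine into urea and ornithine, went from 39.7, 47.2 and 44.5 CPM to 5.01, 5.71 and 5.71 CPM, a change of -3.0 ± 0.19 (adjusted p = 3.09e-11). Ass1, which makes the precursor of arginine, went from 3.58, 5.31 and 5.78 CPM to 1.49, 0.603 and 0.681 CPM, a change of -2.40 ± 0.37 (adjusted p = 2.00e-05). Odc1, the first enzyme of polyamine synthesis, rose by 0.41.

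Genes of cytosolic ribosomal proteins fell in 47 of 80 and rose in 0, with a median of -0.38. None passed a minimum change of 1.5-fold. Rpl5 had 2554, 2424 and 2158 CPM in DMSO and 1489, 1605 and 1506 CPM in PF-06873600, a change of -0.63 ± 0.11 (adjusted p = 9.42e-05), and Rpl10a and Rpl3 fell by about as much (-0.63 and -0.62). Ribosomal protein genes have many processed copies that can share their reads. Ribosome biogenesis genes gave 5 up and 6 down of 49, and 16 up and 2 down with total counts as scaling, so no direction is given for them. Targets of the integrated stress response rose in 13 of 22 and fell in 4. Nupr1, a stress-induced chromatin protein, had 12.7, 9.74 and 10.6 CPM in DMSO and 56, 45.5 and 39.8 CPM in PF-06873600, a change of 2.10 ± 0.15 (adjusted p = 2.41e-10). Trib3 (1.69), the glutathione-degrading enzyme Chac1 (1.10), Ddit3, the gene of CHOP (1.04), and the mitochondrial folate enzymes Aldh1l2 (1.82) and Mthfd2 (0.71) rose, while the cystine carrier Slc7a11 (-0.81) and Ppp1r15a, which restarts translation (-0.67), fell. Atf4, the factor at the centre of this response, fell as well (-0.28 ± 0.08 (adjusted p = 0.00967)), a call lost without PF-06873600 3 (adjusted p = 0.051), with total counts (0.052) and with limma on TPM (0.0567 and 0.0587).

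The unfolded protein response of the endoplasmic reticulum fell in 10 of 19 genes and rose in 1. Xbp1, one of its transcription factors, had 444, 463 and 432 CPM in DMSO and 240.1, 234 and 236 CPM in PF-06873600, a change of -0.92 ± 0.06 (adjusted p = 1.22e-10). The chaperone partners Dnajb9 (-0.82) and Pdia6 (-0.69) fell, Herpud1 rose (0.44) and the chaperone Hspa5 was not called (-0.11 ± 0.07 (adjusted p = 0.274)). Targets of the oxidative stress factor NRF2 split, with 8 of 15 up and 5 down. The glutathione enzyme Gclc (0.71) and the NADPH producer Me1 (0.78) rose, and G6pdx, the first enzyme of the pentose phosphate pathway, fell (-0.74). In the BCL2 family, which governs apoptosis, 3 of 14 rose and 2 fell, shares near those of all genes. With total counts as scaling 5 rose and 1 fell. The killer gene Bmf fell from 49.1, 52.6 and 50.2 CPM to 25.8, 21.8 and 23.2 CPM, a change of -1.10 ± 0.08 (adjusted p = 4.50e-10), and Bid rose by 0.41. Of 12 genes of the mitochondrial genome 1 rose, but 7 of 13 with no filter on low counts and 6 of 11 in a fit of these groups alone. With the library number as a block 3 rose in the fit of all libraries and 7 of 11 in that of these groups alone. Their sums were lowest in library 2 of both groups, 17062, 10506 and 13030.0 CPM in DMSO and 23552, 15392 and 17937 CPM in PF-06873600.

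Most tested epithelial genes fell and most tested mesenchymal genes rose. Of 22 genes of epithelial junctions and keratins 14 fell and 3 rose, with a median of -0.89. Krt4, a keratin of stratified epithelia, had 617, 631 and 640.0 CPM in DMSO and 164, 164 and 158 CPM in PF-06873600, a change of -1.96 ± 0.15 (adjusted p = 3.54e-10). The keratins Krt19 (-1.75) and Krt8 (-1.19), the claudin Cldn4 (-2.32), the membrane protease Prss8 (-1.78) and the epithelial regulators Grhl2 (-1.05) and Esrp2 (-0.95) fell. The 3 rises, named as such after their values were seen, were the claudin Cldn1 (0.90), the keratin Krt23 (1.52, with 0.938, 0.643 and 0.719 CPM after treatment) and the membrane protease St14. The call of Krt23 was lost without DMSO 2 (adjusted p = 0.078) and without PF-06873600 1 (0.057). St14 had 0 counts in DMSO and 25 over the treated libraries, at least 2.96 higher on the log2 scale, and was not called with limma on log2(TPM + 1) (adjusted p = 0.139). Of 9 tested mesenchymal genes 7 rose and 0 fell, and 5 more listed were not tested. Among genes not tested, Cdh2 and Twist1 had 1 count each over the DMSO libraries and 0 over the treated ones. Snai2 had 1 and 6. Vim, vimentin, had 152, 155 and 139 CPM in DMSO and 621, 645 and 615 CPM in PF-06873600, a change of 2.08 ± 0.07 (adjusted p = 1.69e-16). Its lowest treated library was 3.96-fold above its highest control. Cd44, a hyaluronan receptor, rose by 0.75, and Zeb2, a repressor of epithelial genes, by 0.86. Of 28 tested collagen genes 10 rose and 1 fell, with Col12a1 going from 4.93, 6.34 and 4.39 CPM to 24.4, 31.8 and 20.7 CPM, a change of 2.29 ± 0.22 (adjusted p = 1.68e-08). Of these 28, 8 had at most 4 counts over the DMSO libraries, where a fall could hardly be seen, and 16 more listed were not tested. With limma on log2(TPM + 1) 6 collagen genes rose and 0 fell. Tubulin genes rose in 9 of 13 and fell in 1. Tubb2b and Tubb2a, close copies of each other, rose by 1.85 and 1.05, Tuba1a by 0.73, and Tubb4a fell (-1.59). Of 10 genes of the prostate lineage 4 fell and 1 rose. Hoxb13 (-0.72), Foxa1 (-0.44) and Steap4, a metal reductase (-1.29), fell. Of 5 basal epithelial markers 2 fell and 1 rose, with the keratin Krt15 at -1.66. The rise was of the basal factor Trp63, from 2 counts over the DMSO libraries to 16 over the treated ones (adjusted p = 0.0263), and was lost without DMSO 2 (adjusted p = 0.104), DMSO 3 (0.111), PF-06873600 1 (0.0655) or PF-06873600 3 (0.0599). Of 3 neuroendocrine markers Calca fell (-2.83) and the adhesion gene Ncam1 rose (0.34).

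PF-06873600, which also inhibits CDK2, was set against palbociclib, which inhibits CDK4 and CDK6. The doses were not matched, at 500 nM and 1 µM. Between the treatments 4057 genes differed (26.1%), 2241 higher in PF-06873600 (14.4%) and 1816 lower (11.7%). Genes of mitosis, DNA synthesis and licensing stood higher in PF-06873600 in most members, and fewer of the other cell cycle genes did. Of 60 genes of G2 and mitosis 58 were higher and 1 lower, with a median of 0.90. Of 38 DNA synthesis genes 36 were higher, at a median of 0.69, and of 23 licensing genes 17, at 0.70, with none lower in either list. Ndc80 had 32.6, 35.2 and 39.6 CPM in PF-06873600 and 13.1, 13.6 and 16.1 CPM in palbociclib, a difference of 1.33 ± 0.16 (adjusted p = 3.21e-06). Cdc6 had 22.9, 24.8 and 25 and 11.7, 10.1 and 13.1 CPM, a difference of 1.05 ± 0.14 (adjusted p = 9.57e-06). In both genes the lowest PF-06873600 library was above the highest palbociclib library. Dtl (0.82), Mybl2 (1.09), Birc5 (1.12), Nusap1 (1.09), Cdk1 (0.89), E2f1 (0.59) and Ccne1 (0.58) were also higher. Lmnb1, not called against DMSO, had 32.4, 34.7 and 40.5 CPM in palbociclib, below every PF-06873600 library, a difference of 0.71 ± 0.11 (adjusted p = 8.90e-05). Of 13 cell cycle kinases and cyclins 6 were higher, and 3 without palbociclib 1. Recombination genes were higher in 15 of 28, genes of RB, E2F and DREAM in 8 of 20 with 1 lower, and CDK inhibitor genes in 2 of 7.

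**Figure D5:**
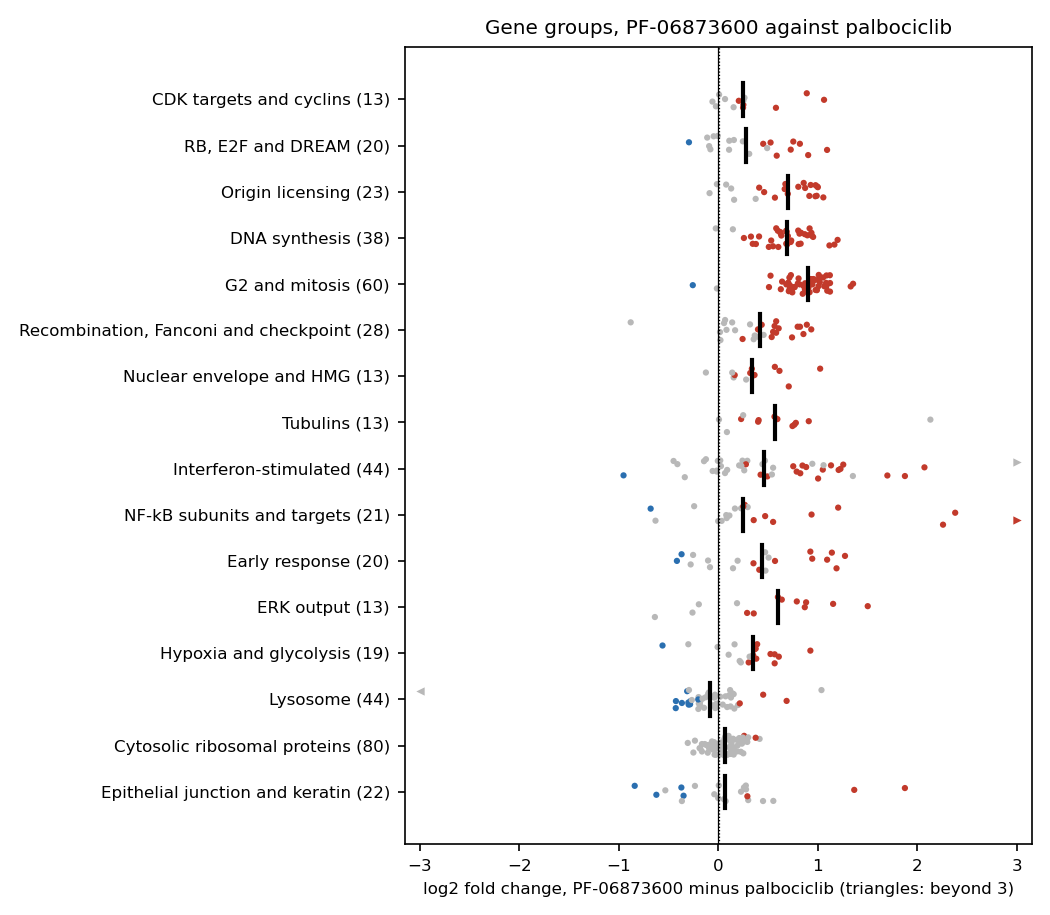
Log2 difference of PF-06873600 minus palbociclib for each tested member of the gene lists, 1 point a gene and 1 row a list, coloured where called and grey where not. A black tick is the median of a list and the dotted line the median of all genes tested (0.01). The G2 and mitosis genes lie to the right at a median of 0.90.

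Several inflammatory genes led the other differences from palbociclib, and lists of growth signals ranged from mostly higher to mixed. The 6 largest differences upward were C3, Dnm3, Cxcl5, Spink5, Il1rl1 and Cxcl1. C3 had 6.21, 5.15 and 5.32 CPM in palbociclib against 35.7, 37.6 and 28.6 CPM in PF-06873600, a difference of 2.61 ± 0.16 (adjusted p = 1.55e-10). Dnm3, a dynamin, had 3.06, 2.16 and 2.97 CPM against 13.6, 9.25 and 10.6 CPM, a difference of 2.03 ± 0.17 (adjusted p = 2.23e-08). Cxcl1, a neutrophil chemokine like Cxcl5, had 5.56, 3.94 and 4.41 CPM against 16.4, 16.3 and 12.9 CPM, a difference of 1.71 ± 0.13 (adjusted p = 5.69e-09). None of these groups overlap, as the rule that named the genes required. Spink5 and Il1rl1 differed by 1.89 and 1.79. NF-kB genes were higher in 10 of 21, ERK output genes in 9 of 13 and hypoxia and glycolysis genes in 11 of 19, with 1, 0 and 1 lower. Early response genes were higher in 9 of 20 and lower in 2, YAP and TEAD targets in 6 and 4 of 18, EGF family genes in 2 and 2 of 7, and MYC network genes in 3 and 2 of 10. ID and TGF-beta family genes were higher in 5 of 9 and lower in 0, with 2 higher without palbociclib 1. Etv4 differed by 1.15, Bnip3 by 0.92, Pgk1 by 0.57 and Ldha by 0.57, while Hk2 was lower (-0.56). Interferon-stimulated genes were higher in 17 of 44 and lower in 1, and in 9 without the libraries numbered 2. Vim differed by 0.98, Spp1 by 1.10 and Id1 by 1.13. All 9 called tubulin genes of 13 and all 9 called nuclear envelope and HMG genes of 13 were higher.

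The 6 largest differences downward were Fgb, Neat1, Spaca6, Neu3, Treh and mt-Tc. Fgb, a fibrinogen chain, had 18.4, 20.2 and 16.1 CPM in PF-06873600 and 79.9, 89.1 and 75 CPM in palbociclib, a difference of -2.16 ± 0.17 (adjusted p = 9.51e-09). The sialidase gene Neu3 had 4.30, 5.31 and 5.18 and 14.1, 16.8 and 15.6 CPM (-1.65 ± 0.13 (adjusted p = 5.69e-09)), and the trehalase gene Treh 7.78, 8.28 and 8.36 and 24.8, 25.5 and 24.5 CPM (-1.61 ± 0.10 (adjusted p = 2.76e-10)). The mitochondrial cysteine tRNA, mt-Tc, differed by -1.52 ± 0.25 (adjusted p = 1.14e-04). Neat1 had 206, 59.6 and 205 CPM against 544, 449 and 609.6 CPM, a difference of -1.77 ± 0.65 (adjusted p = 0.0489). This call was lost without any 1 of the 6 libraries, at adjusted p between 0.0678 and 0.187. Spaca6, a sperm gene, differed by -1.65 ± 0.51 (adjusted p = 0.0207) and was lost without PF-06873600 2 (adjusted p = 0.101) or palbociclib 3 (0.0654). Steap4 and Calca were lower too (-1.13 and -1.26). Library 2 stood apart in PF-06873600 but little in palbociclib. On the second principal component of all 24 libraries PF-06873600 stood at 7.48, 42.4 and 6.92, and palbociclib at -26.7, -20.2 and -31.3. Mitochondrial genes took 2.40%, 1.55% and 1.85% of counts in PF-06873600 and 2.73%, 2.87% and 3.27% in palbociclib. Whether handling of the libraries shares in the differences of Neat1 and mt-Tc was not tested.

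Against alisertib, given at the same 500 nM, 3952 genes differed (25.5%), 2235 higher in PF-06873600 (14.4%) and 1717 lower (11.1%). Total counts as scaling moved the median of all genes from 0.01 to -0.10 on the log2 scale and the share of calls higher from 56.6% to 32.2%, so small differences here depend on the scaling. The count of genes higher was 1302 without PF-06873600 1, 1097 without PF-06873600 2 and 1338 without alisertib 3, and the total 2505 without PF-06873600 2 and 2532 without alisertib 3. With the library number as a block in a fit of both groups alone 2908 genes were lower. Genes of G2 and mitosis were lower in PF-06873600 in 56 of 60 and higher in 0, with a median of -0.75. Aurka had 41.7, 44.3 and 45.3 CPM in PF-06873600 and 98.5, 94.1 and 91.5 CPM in alisertib, a difference of -1.11 ± 0.15 (adjusted p = 1.15e-05). Mki67 had 96.1, 106 and 95.6 and 183, 199 and 186 CPM, a difference of -0.93 ± 0.18 (adjusted p = 5.90e-04). Ccne1 stood at 22.1, 23.1 and 22.9 and 13.5, 12 and 11.5 CPM (0.88 ± 0.09 (adjusted p = 4.51e-07)). DNA synthesis genes were higher in 2 of 38 and lower in 10, or 5 lower without alisertib 1 and 16 lower with the block in a fit of both groups alone. The largest differences upward were Cps1, which feeds the urea cycle (2.20), Spink5 (2.19), Prss8 (1.90), Krt8 (1.79), Fosb (1.66) and the peptide hormone gene Cck (1.66). Cps1 had 364, 384 and 460.5 CPM in PF-06873600 and 67.3, 107 and 89.3 CPM in alisertib. The groups do not overlap, as the naming rule required. The largest downward were the granzyme inhibitor gene family members Serpinb9g (-2.25) and Serpinb9f (-1.85), Cd74 (-2.18), C3 (-2.16), Neat1 (-2.05) and Ccl9 (-1.98). Serpinb9g and Serpinb9f are close copies. Neat1 was not called without PF-06873600 2 (adjusted p = 0.11), alisertib 1 (0.0893) or alisertib 3 (0.0649). Of 22 epithelial genes 13 were higher than in alisertib and 2 lower.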

How the data were processed

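Total RNA of Myc-CaP cells was sequenced in 24 libraries, 3 for each of 8 groups. Per the submitters' processing notes, reads were processed with fastp, STAR and featureCounts on the build mm10, and DESeq2 is named. Versions, strand setting and treatment of reads with several alignments are not given in the sources used here, so close copies and overlapping genes can share reads. The deposited counts are raw counts for 55487 genes, and the deposited TPM (counts per length of transcript, scaled to the library) cover 24621 genes and serve only as an alternative. Gene positions are those of GENCODE vM21.

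All 24 libraries entered one quasi-likelihood fit of edgeR 4.0.16 (R 4.3.3), scaled by TMM, in which each group had its own mean and 16 residual degrees of freedom remained. Filtering with filterByExpr at a minimum count of 10 and total of 15 left 15527 genes with at least 99.872% of counts in each library. Tests were two-sided, with Benjamini-Hochberg adjustment over all genes tested. Library pairs within a group differed by a chi-square per degree of freedom of 4.44 to 11.7 for PF-06873600 and 13.5 to 19.3 for DMSO, so none was a copy. Total counts are as given with the results, intervals of counting error are not printed, and counting error is large near 0, where a gene with up to 4 counts in DMSO is given by its level. PF-06873600 and DMSO libraries with the same number deviated together (correlations 0.117, 0.31 and 0.155, all over 0.1), as did those of PF-06873600 and alisertib (0.166, 0.37 and 0.158), so the numbers were taken to pair them. This pairing comes from the data, since the labels do not state it. The main fit left the pairing out, and it entered only as the block among the alternatives.

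The members and the 47 gene lists were chosen with earlier results of these data known. Lists are described by the members called in the fit across all genes and by their median, with no test of the list. Named genes are the 12 largest rises and 12 largest falls against DMSO, and 6 of each against the other drugs, among called genes with at least 10 CPM in the higher group, an established symbol and groups that do not overlap, members of lists of up to 25, the 8 largest called changes of longer lists, the drug targets, and Cdkn1a, Mki67, Lmnb1 and Glb1. Some genes that these rules name are not reported here. The fit was tested on simulated data. Alternatives were RLE factors, total counts, no filter, a minimum change of 1.5-fold, a filter of 1 CPM in 3 libraries, DESeq2 1.42.0, a block for the library number, only the groups compared, leaving out each library or all numbered 2, and limma 3.58.1 on log2(TPM + 1) and log2(TPM + 0.1). The hypoxia motif was added after seeing the data.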

Additional observations from a re-analysis of the deposited data

How the results depend on the processing

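Against DMSO, 4937 genes were called with RLE factors, 5391 with total counts, 4641 with no filter, 5014 with DESeq2, 5992 with the replicate block in all 24 libraries, 5892 with the block in the 2 groups alone and 4091 without the libraries numbered 2, and 4164 to 4485 without each library in turn. A minimum change of 1.5-fold left 955 (691 higher, 264 lower). Limma on TPM called 1246 genes lower with a pseudocount of 1 and 1239 with 0.1. Against palbociclib, where same-numbered libraries did not all deviate together (0.0353, 0.126 and 0.0642), a minimum change of 1.5-fold left 215 (156 higher, 59 lower). The block gave 2822 lower in all 24 libraries, and 6455 called with 3277 lower in the 2 groups alone. Without the libraries numbered 2 1482 were higher, and a fit of the 2 groups gave 2932 lower. Against alisertib, a minimum change of 1.5-fold left 219 (46 higher, 173 lower), total counts gave 1181 higher and the block in the 2 groups 2908 lower. Limma on TPM gave 859 higher and 2748 lower with a pseudocount of 1 and 827 higher with 0.1. Leaving out each library gave 2505 to 3406 called and 1097 to 1884 higher. The causes were not tested.

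Signs of small changes against DMSO that were not called turned. Cdk4 was at 0.0035 with total counts and 0.0207 with limma on TPM at either pseudocount, and Cdk2 at 0.0280, 0.0346 and 0.0365. Cdkn2a was at -0.0218 with no filter, -0.0057 without the libraries numbered 2 and -0.1079 to 0.0692 without each library, and Neat1 at -0.0983 to 0.6991. Depth limits the genes near 0 in DMSO, whose folds are imprecise.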
